A study of Caenorhabditis elegans with 2 samples.

Results

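The regions described here are the MRG-1 peaks that lie inside tight runs: peaks narrower than 10000 bp with another peak less than 1000 bp away on both sides. The gap between neighbouring peaks was counted as the bases between the end of one and the start of the next on the same chromosome. Of the 3782 peaks in the authors' list, 412 met this rule, or 10.9% (95% exact Clopper-Pearson interval 9.92 to 11.9%, counting error only). They are called run-interior peaks below. The members were thus chosen by the gaps and widths of the peaks, and their score was left aside. Gaps, widths, scores and positions all come from the same calls as the rule, so every value below describes this list and no test is attached to any difference.

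The peaks come from chromatin immunoprecipitation followed by sequencing (ChIP-seq) in Caenorhabditis elegans. The series comprised 1 library of MRG-1 ChIP DNA and 1 library of input DNA, both from hermaphrodites of the strain fem-2(b245), genotype fem-2(b245)III, labelled as young adults with a germline and cultured at 20 °C. The mutation lies in a gene of the sex determination pathway and both libraries carry it, so no wild-type animals stand beside them. Whole animals were used, so bound DNA from the germline and from somatic tissue cannot be told apart. The antibody was a rabbit polyclonal serum against an MRG-1 peptide. There was no replicate, and the depth of either library is unknown from the peak list.

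MRG-1 is the worm relative of mammalian MRG15, a chromodomain protein whose chromodomain recognises methylated lysine 36 of histone H3 in mammals. In the worm it is required for the development of the germ line. Methylation of that lysine lies over the bodies of transcribed genes. Worm autosomes have a gene-dense central part and outer arms that are richer in repeats and recombine more. The X chromosome is largely silent in germ cells for much of their development.

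A run was taken as the longest chain of consecutive peaks with gaps under 1000 bp, and it was kept when it held at least 1 run-interior peak. There were 235 such runs. Whether the peaks of a run are separate sites or parts of 1 bound region was not tested. The runs held 897 peaks: the 412 run-interior peaks, 426 narrow peaks at the ends of the runs, and 59 wide peaks of 10000 bp or more. Of the wide peaks in runs, 15 were interior and were kept out by their width alone. Most runs were short. Runs of 3 peaks numbered 126 (53.6%), runs of 4 numbered 64 (27.2%) and runs of 5 numbered 27 (11.5%). There were 10 runs of 6 peaks, 1 of 7, 4 of 8, 2 of 9 and 1 of 11. The 45 runs of 5 or more peaks made up 19.1% of the runs and held 166 run-interior peaks, or 40.3% of them. By the rule, the other peaks under 10000 bp had a close neighbour on at most 1 side. Across the list, 1406 peaks, the end peaks of the runs among them, had a close neighbour on 1 side and 1940 had none.

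The run with the most peaks lay on chromosome I at 2992058 to 3020337 (WormBase build WS220, as for all positions here). Its 11 peaks spanned 28280 bp and covered 86.5% of that span. The peaks were uneven. The second was 5227 bp wide with a score of 2325.69, while the fifth, sixth and seventh were 1045, 1222 and 1217 bp wide with scores of 71.98, 70.58 and 54.65. The score is the authors' own value for each peak, on a scale the file does not state. Its gaps ran from 68 to 636 bp, and the run was set off from the next peaks by 6.76 kb on its left and 2.42 kb on its right.

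The 2 runs of 9 peaks lay on chromosomes III and V. The run on III, at 11751166 to 11781062, spanned 29897 bp and was 92.2% covered. Its strongest peak by score, at 3100, was the seventh of 9 and 5693 bp wide. It stood between a neighbour of 6030 bp scoring 1117.91 and another of 1330 bp scoring 161.4. The run on V, at 176085 to 199925, spanned 23841 bp close to the left end of the chromosome and was 84% covered. There the first peak, an end peak, was both the widest (6225 bp) and the highest in score (2366.99). The 7 peaks inside were 976 to 2790 bp wide.

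Runs of 8 peaks took several forms. On chromosome III at 10398521 to 10445223, 2 wide peaks of 15093 and 11591 bp enclosed 4 run-interior peaks of 1012, 7428, 1868 and 2717 bp. This run spanned 46703 bp and was 98.6% covered, and its largest gap was 223 bp. On chromosome I at 12879319 to 12907987, 8 narrow peaks spanned 28669 bp, and the last, 7373 bp wide, had a score of 3100. On chromosome II at 2224294 to 2246312, the run with the most peaks on that chromosome, a peak of 6371 bp scoring 3100 and its neighbour of 4585 bp were followed by 3 peaks of 1087 to 1164 bp scoring 67.41 to 84.79. On chromosome III at 234435 to 252241, all 8 peaks were under 3000 bp and the first scored 1175.25. The run of 7 peaks, on chromosome I at 3571691 to 3587727, was the most even of these, with widths of 1370 to 2885 bp and scores of 172.08 to 572.05. A further peak lay 1.03 kb before it, just beyond the limit on gaps.

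**Figure D1:**
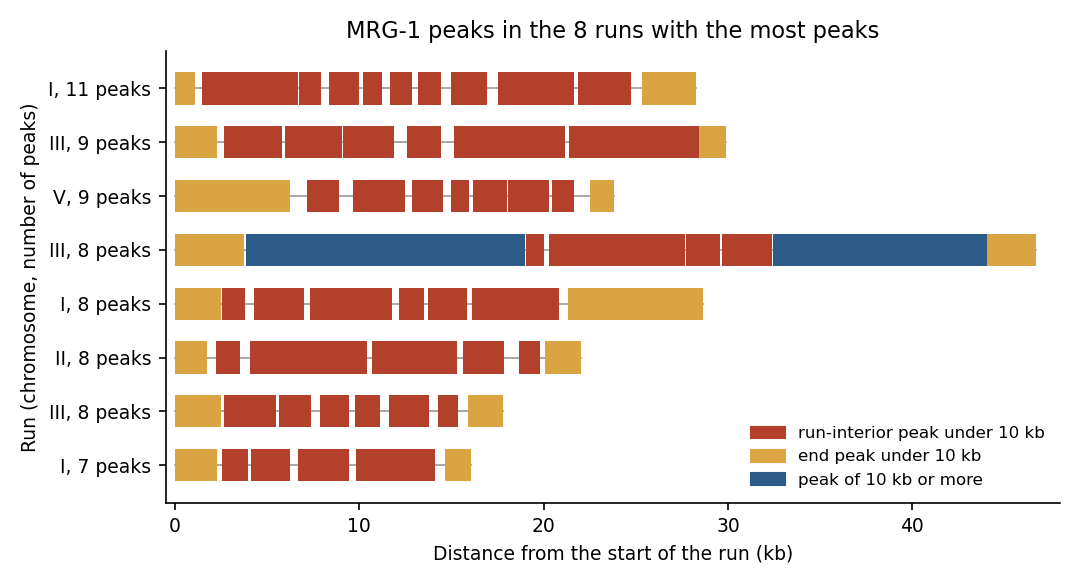
Peaks of the 8 runs with the most peaks, drawn to scale by distance from the start of each run in kb (horizontal axis), with 1 run per row from 11 peaks at the top to 7 at the bottom. Red blocks are run-interior peaks, yellow blocks narrow end peaks and blue blocks peaks of 10 kb or more, which occur here in 1 run, that of 46703 bp on III; gaps of a few bp are too small to be seen.

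The 4 runs with the largest span each held 2 wide peaks. The largest, 56472 bp on chromosome I at 4911133 to 4967604, held only 4 peaks, of which 2 were 25699 and 19007 bp wide. Its 1 run-interior peak lay between them, 5169 bp wide with a score of 791.49. The second, 54369 bp on I at 4597704 to 4652072, had wide peaks of 21641 and 21184 bp at its ends and 3 run-interior peaks of 1754 to 5450 bp between them. The third was the run of 46703 bp on III described above. The fourth, on IV at 12114372 to 12154656, was also the run with the most peaks on that chromosome, at 6. It spanned 40285 bp, with wide end peaks of 13002 and 16426 bp and 4 run-interior peaks of 1193 to 4492 bp.

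The X chromosome had 1 run. It lay near the left end, at 193695 to 201184, held 4 peaks of 1177 to 2317 bp, spanned 7490 bp and was 81.6% covered. Its 2 run-interior peaks scored 56.29 and 372.23.

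Over all 235 runs the median span was 12931 bp (quartiles 8296.5 and 18159.5, range 3955 to 56472 bp). Peaks covered a median of 93.3% of a run's span (quartiles 89.2 and 96.4%), which follows in part from the limit on gaps. In all, 168 runs were covered to 90% or more and 5 to less than 80%. The least covered run, on III at 12734812 to 12744270, had 5 peaks over 9459 bp and was 68% covered, with gaps averaging 757 bp. The most covered, on V at 16789064 to 16808538, had only 119 uncovered bases in 19475 bp. Together the runs spanned 3.41 Mb, of which 3.20 Mb lay under peaks. That span is 3.41% of the summed chromosome length, where each chromosome was measured up to its last peak. The run-interior peaks alone held 6.50% of the bases under all peaks of the list.

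The runs fell into those with a wide peak and those without. The 54 runs with a wide peak spanned a median of 22334 bp (quartiles 19044.8 and 29028.8) and were covered to a median of 96.9%. The 181 runs without a wide peak spanned a median of 10460 bp (quartiles 7591 and 14755) and were covered to 92%. Of these 181, 96 (53%) spanned 10000 bp or more. For comparison, the 446 wide peaks of the list were 13580.5 bp wide in the median (quartiles 11469.5 and 17029.2). Thus 96 stretches built from narrow peaks only reached the width that defines a wide peak.

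**Figure D2:**
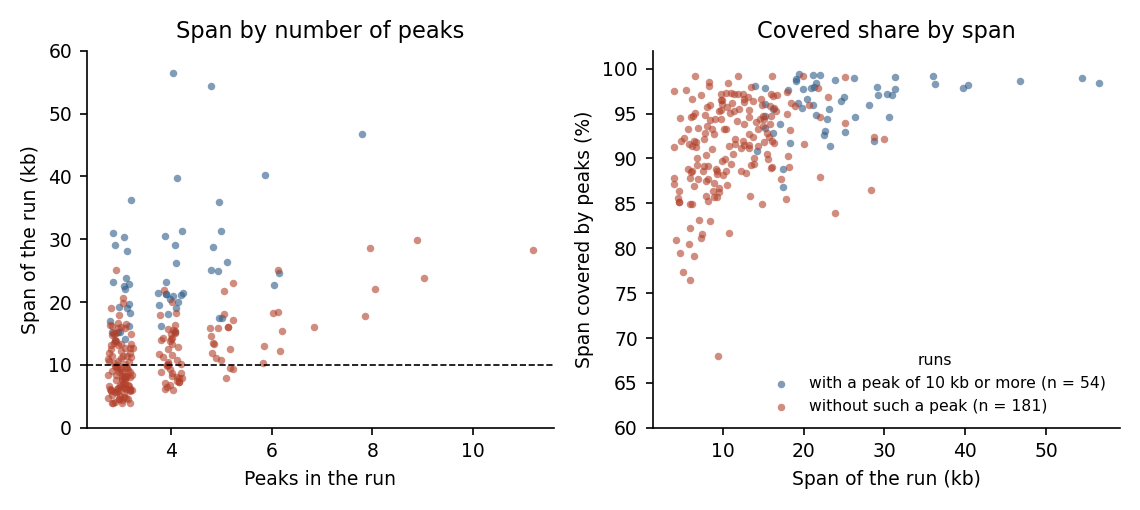
Each point is 1 of the 235 runs, in blue with and in red without a peak of 10 kb or more. Left, span in kb against the number of peaks (points are spread sideways, and the dashed line marks 10 kb); right, the share of the span under peaks in percent, on an axis that starts at 60, against span in kb: runs with a wide peak reached 56472 bp and those without 29897 bp.

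Gaps inside the runs were mostly far below the limit. The 662 gaps had a median of 242 bp, quartiles of 114 and 469.75 bp and a range of 1 to 987 bp. Under 100 bp were 154 of them (23.3%), and under 600 bp were 559 (84.4%). Together they came to 210.9 kb. The distance between the midpoints of neighbouring peaks in a run had a median of 2938.25 bp (quartiles 2008.12 and 4730.5). The 477 close gaps outside the runs, mainly in pairs of peaks, had a median of 287 bp. Over the whole list the number of gaps per class of 100 bp was 93 to 259 below 600 bp, 37 to 49 between 600 and 1000 bp, and 24 to 50 between 1000 and 2000 bp. The number thus dropped at about 600 bp, and the limit of 1000 bp fell in a part of the distribution with little change. The largest gaps under the limit were 990, 991 and 996 bp and the smallest beyond it 1001, 1004 and 1007 bp.

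**Figure D3:**
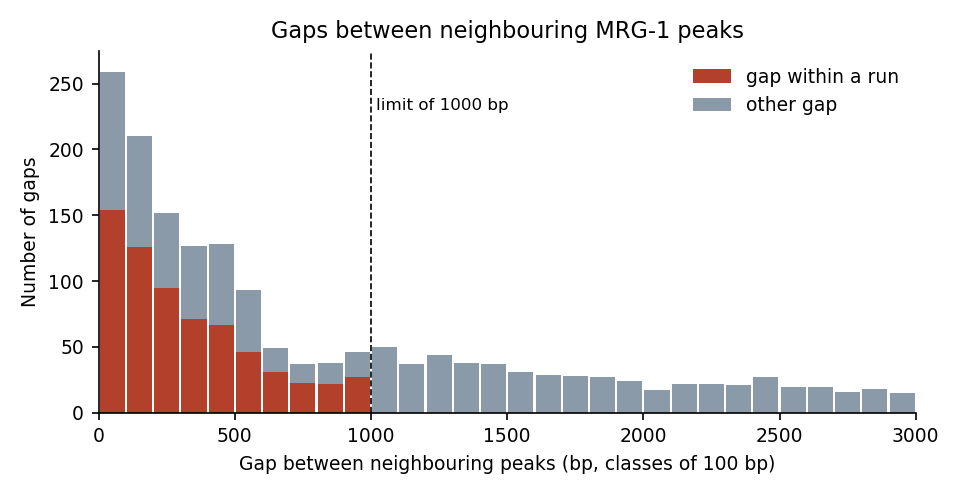
Number of gaps between neighbouring peaks (vertical axis) by gap in bp, in classes of 100 bp up to 3000 bp, with gaps within runs in red, other gaps in grey and the limit of 1000 bp as a dashed line. Counts drop from 259 in the first class to 49 in the class from 600 bp.

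Runs were themselves unevenly spaced. Between neighbouring runs lay a median of 133.6 kb (quartiles 36.7 and 371.8 kb), with a smallest distance of 1.18 kb and a largest of 4143.85 kb. Of 229 such distances, 22 were under 10 kb. The gaps on the outer sides of the runs had a median of 8090 bp, and 85 of 470 (18.1%) were under 2000 bp. Over all gaps of 1000 bp or more in the list the median was 12197 bp and 13.1% were under 2000 bp.

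Run-interior peaks were unevenly spread over the chromosomes, with the largest share on I and almost none on X. Chromosome I held 142 of the 412 (34.5%), beside 24% of all peaks of the list. Chromosome III held 98 (23.8%, beside 21% of all peaks), IV 67 (16.3%, beside 17.3%), V 54 (13.1%, beside 15.2%), II 49 (11.9%, beside 17.3%) and X 2 (0.485%, beside 5.16%). As a share of the peaks of each chromosome, they made up 15.6% on I (exact interval 13.3 to 18.1%), 12.3% on III (10.1 to 14.8%), 10.2% on IV (8.02 to 12.8%), 9.41% on V (7.15 to 12.1%), 7.50% on II (5.60 to 9.80%) and 1.03% on X (0.124 to 3.66%). These intervals treat peaks as independent, which the choice by close neighbours breaks, so they are too narrow. Runs spanned 8.75% of the length of I, 5.72% of III, 3.10% of IV, 2.57% of II, 1.77% of V and 0.0423% of X. Close spacing and the number of peaks go together: I and III also had the most peaks per Mb, at 60.5 and 57.8, and X the fewest, at 11. The order was not the same throughout, since II had more peaks per Mb than IV and V (42.8, against 37.5 and 27.5) and the smallest share of run-interior peaks among the autosomes.

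Along the autosomes, run-interior peaks lay mostly in the outer parts. The central 50% of each chromosome held 100 of the 410 autosomal run-interior peaks, or 24.4% (exact interval 20.3 to 28.8%). It held 40.3% of the other 2731 autosomal peaks under 10000 bp and 75.1% of the 446 wide peaks. Among those other narrow peaks, it held 25.9% of the end peaks of runs (110 of 424), close to the run-interior share. The share was 36.3% for narrow peaks in pairs and 46.5% for narrow peaks with no close neighbour. Run-interior peaks were sparse in the middle. Between 40 and 60% of the length lay 17 run-interior peaks (4.15%), 438 of the other narrow peaks (16%) and 152 of the wide peaks (34.1%). Just outside the centre on the left, between 15 and 25% of the length, lay 89 run-interior peaks (21.7%), beside 12.3% of the other narrow peaks and 5.38% of the wide peaks. Most of these 89 came from 2 chromosomes, with 47 on I and 24 on III, beside 11 on V, 5 on IV and 2 on II. Without I, 42 of 268 run-interior peaks (15.7%) and 10.9% of the other narrow peaks lay there. Both stretches were chosen after the values had been seen.

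The share in the centre differed with the kind of run. It was 51.9% for the 54 runs with a wide peak (28 in centres) and 22.2% for the 180 autosomal runs without (40 in centres). Among run-interior peaks, it was 31.7% in runs of 3 peaks, 29.7% in runs of 4, 22.1% in runs of 5 and 8.99% in runs of 6 or more. These shares count peaks, although peaks of 1 run share a position. The 8 central peaks in runs of 6 or more came from the runs on IV at 12114372 and at 4372509, with 4 each. The latter run lay at the edge of the centre, at 0.251 of the length. The chromosomes were unlike in their share in centres. Centres held 16 of 98 run-interior peaks on III (16.3%), 10 of 49 on II (20.4%), 33 of 142 on I (23.2%), 15 of 54 on V (27.8%) and 26 of 67 on IV (38.8%). The sides also differed: the outer left 25% of I held 75 and the outer right 34, V had 31 and 8, and IV 26 and 15, while II had 12 and 27 and III 36 and 46.

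**Figure D4:**
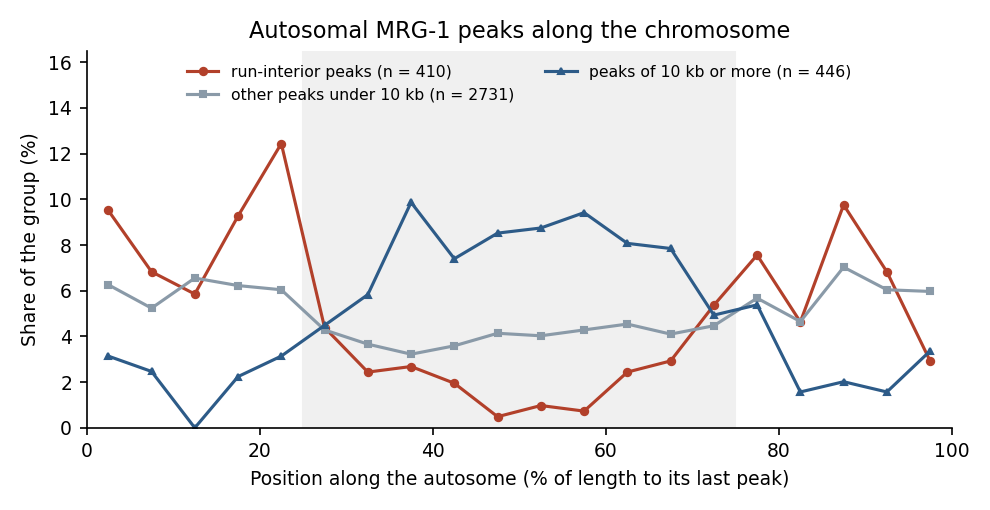
Share in percent of autosomal run-interior peaks (red, n = 410), other peaks under 10 kb (grey, n = 2731) and peaks of 10 kb or more (blue, n = 446) by position along the chromosome, in classes of 5% of the length up to the last peak, with the 5 autosomes pooled and the central 50% shaded. The red line is highest in the class from 20 to 25%, at 12.4%, and lowest in the class from 45 to 50%, at 0.488%.

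The autosomes were not filled evenly. Of 85 autosomal bins of 1 Mb, 71 held a run-interior peak, and 15 bins with 10 or more held 231 of the 412 (56.1%). Those 15 bins were picked by this count and held 46 to 111 peaks each. Run-interior peaks made up 13.9 to 31.5% of the peaks in each of them, beside 10.9% of the list. The densest bin was on I from 3 to 4 Mb, where 35 of 111 peaks (31.5%) were run-interior, in 17 runs. It was followed by III from 2 to 3 Mb (21 of 85 peaks), III from 11 to 12 Mb (20 of 101) and I from 2 to 3 Mb (17 of 82). The first Mb of V held 15 among only 51 peaks (29.4%), in 5 runs, among them the run of 9. Without its densest bin, I held 107 run-interior peaks among 798, or 13.4%.

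Run-interior peaks were on the narrow side of the list. Their median width was 1983.5 bp (quartiles 1335.25 and 3797.75), beside 2443 bp (1435.5 and 4770) for the 2924 other peaks under 10000 bp. Peaks under 2000 bp made up 50.7% of the run-interior peaks and 41.1% of the others, and peaks of 5000 bp or more 13.8% and 23.3%. The size of this difference varied by chromosome. The medians of run-interior and other peaks were 2038.5 and 2114 bp on I and 2300.5 and 2479 bp on III, while they were 1919 and 2692 bp on II, 1832 and 2705 bp on IV, and 1716.5 and 2891 bp on V. Among peaks under 5000 bp alone the difference in medians, run-interior minus other, was -120 bp, against -459.5 bp with the limit of 10000 bp. The narrow end peaks of the same runs were close to the interior ones, at a median of 1905 bp. Narrow peaks in pairs had a median of 2220 bp and narrow peaks with no close neighbour 2756.5 bp. Narrow peaks with no close neighbour thus had the largest of these medians, and peaks in runs, interior or at an end, the smallest.

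The 5 widest run-interior peaks were 9048 to 9424 bp wide. The widest lay on II at 12218259 to 12227682 in a run of 5 peaks, with gaps of only 94 and 6 bp beside it and a score of 1419.08. The next were on V at 4612050 to 4621279 (9230 bp, score 3100, in a run of 6), on I at 7575110 to 7584312 (9203 bp, 2557.73), on I at 11320671 to 11329772 (9102 bp, 894.26) and on V at 110598 to 119645 (9048 bp, 2551.77). Beyond the width limit, the narrowest peaks with close neighbours on both sides were 10015, 10296 and 10391 bp wide, each with a score of 3100. There were 24 such wide peaks in all. The 3 narrowest run-interior peaks were on V at 191064 to 192039 (976 bp, in the run of 9 described above), on I at 3066185 to 3067171 (987 bp) and on III at 12741444 to 12742450 (1007 bp). Their scores were 73.77, 50.39 and 61.53.

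By part of the autosomes, the difference in median width was largest in the centres. There run-interior peaks had a median width of 2419 bp (n = 100) and other peaks under 10000 bp 4017 bp (n = 1101). In the outer left 25% the medians were 1750.5 bp (n = 180) and 1799 bp (n = 828). In the outer right 25% they were 2281.5 bp (n = 130) and 1882.5 bp (n = 802), with the run-interior peaks the wider ones. Within single bins of 1 Mb that held at least 3 of both kinds, run-interior peaks were narrower in the median in 11 of 15 central bins and in 14 of 28 outer bins. The median difference, run-interior minus other, was -653 bp over the central bins and 12.5 bp over the outer bins. Centres, where both sets had their largest median widths, held 24.4% of the autosomal run-interior peaks and 40.3% of the others. How much of the difference in width over the whole list came from this was not tested.

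The median score was 322.57 for run-interior peaks and 454.31 for the other peaks under 10000 bp. Among those others it was 252.975 for the narrow end peaks of runs and 334.89 for narrow peaks in pairs. For narrow peaks with no close neighbour it was 732.87. The direction between run-interior peaks and all other narrow peaks was not the same throughout. On chromosome I the run-interior peaks had the higher median, at 322.685 beside 298.42, and among peaks under 5000 bp they stood higher by 7.34. On III the medians were 381.76 and 499.67, on II 240.27 and 620.76, on IV 270.03 and 640.88, and on V 254.275 and 1032.04. Scores of 3100 or more, a value at which 753 peaks of the list stand exactly, were given to 22 run-interior peaks (5.34%, exact interval 3.38 to 7.97%) and to 559 of the others (19.1%, interval 17.7 to 20.6%). These intervals give counting error only and treat peaks as independent. Among the others, 9.39% of the narrow end peaks of runs and 12.3% of narrow peaks in pairs had such scores. For narrow peaks with no close neighbour the share was 25%. In autosome centres the median scores were 377.18 and 1758.7. In the outer left 25% they were 286.87 and 227.48, and in the outer right 25% 330.5 and 255.75, so there the run-interior peaks had the higher median. Scores below 100 were about as frequent in both sets as a whole, with 16.7% of run-interior peaks and 18.2% of the others. By part of the autosomes they differed in opposite directions. In centres the shares were 17% of run-interior peaks and 9.63% of the others. In the outer left 25% they were 18.9 and 24.5%, and in the outer right 25% 13.1 and 23.3%.

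**Figure D5:**
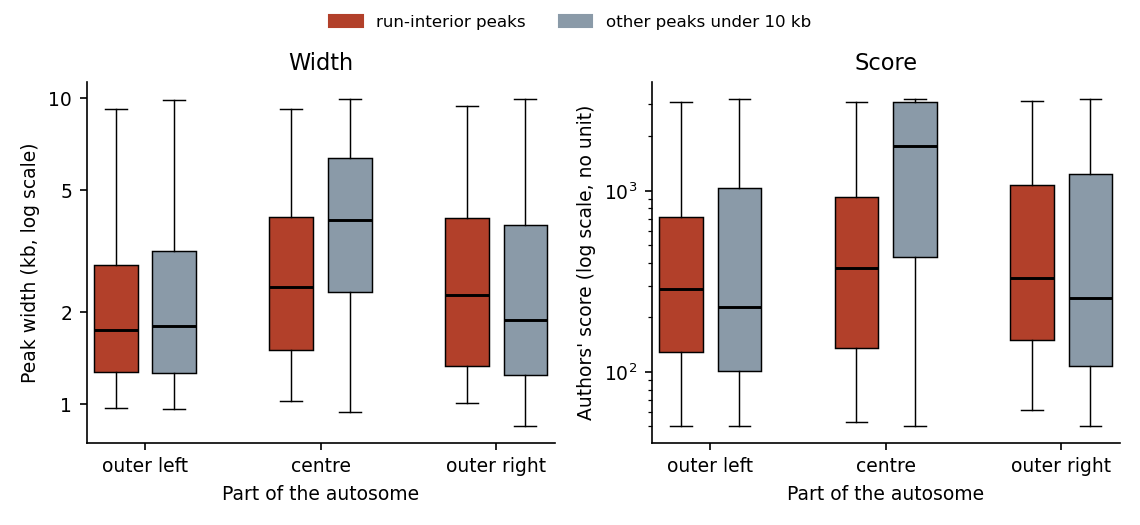
Width in kb (left, log scale) and the authors' score (right, log scale, no unit) of autosomal peaks under 10 kb, with run-interior peaks in red and other peaks in grey, in the outer left 25%, the central 50% and the outer right 25%. Boxes run from the lower to the upper quartile with the median as a line and whiskers to the extremes; in the centre the median widths are 2419 and 4017 bp, while in the outer left 25% they are 1750.5 and 1799 bp.

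Width and score were tightly linked, with a Spearman rho of 0.903 over the 412 run-interior peaks and 0.890 over the other 2924 (across peaks of 1 library, so no p is given). Within the same class of width, the median scores stood close together below 3000 bp. Medians for run-interior and other peaks were 103.94 and 89.08 below 1500 bp, 228.41 and 204.79 from 1500 to 2000 bp, and 429.93 and 420.59 from 2000 to 3000 bp. Above that the run-interior peaks scored lower, at 993.47 and 1587.65 from 3000 to 5000 bp, and at 2484.33 and 3100 from 5000 to 10000 bp. In the widest of these classes 20 of 57 run-interior peaks (35.1%) and 430 of 680 other peaks (63.2%) reached 3100. From the narrowest to the widest class, centres held 18.5, 26, 19.7, 36.2 and 28.1% of the autosomal run-interior peaks, and 15.9, 26.2, 41.2, 52.9 and 64.2% of the other autosomal peaks. Below 2000 bp, where 209 of the 412 run-interior peaks fell, the central shares of both sets thus stood close together. In each class from 2000 bp upward the run-interior share was the lower one. The class from 2000 to 3000 bp differed in position while its median scores stood close together.

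Peaks within a run differed in width. The widest peak of a run was a median of 4.05 times as wide as the narrowest (quartiles 2.38 and 6.37, highest 19.9). The widths of neighbours in a run were barely related (Spearman rho 0.116 over 662 pairs of neighbours, which share peaks and come from 1 library, so no p is given), nor were their scores (rho 0.0716). The widest peak was interior in 92 runs (39.1%) and at an end in 143, where interior peaks made up on average 43.8% of the peaks of a run.

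Run-interior peaks beside a wide peak numbered 59 (14.3%), 1 of them between 2 wide peaks. They had a median width of 2619 bp and a median score of 352.26. The other 353 had medians of 1966 bp and 316.04. Of those beside a wide peak 50.8% lay in autosome centres (30 of 59), and of the other 351 autosomal ones 19.9% (70). By length of run, the median width of run-interior peaks was 2572.5 bp in runs of 3, 1960 bp in runs of 4, 1782 bp in runs of 5 and 1816 bp in runs of 6 or more, and their median score was 458.62, 320.37, 336.7 and 273.7 in the same order. Those in runs of 3 were thus the widest and highest-scoring in the median.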

How the data were processed

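The authors deposited 1 peak list, for the ChIP library. Per the file headers, it is on WormBase WS220 and names MACS as the source of its peaks. BWA and the build ce10 are named per the submitters' processing notes. No version, caller setting, use of the input or read depth is stated in them. The score deposited by the authors has no stated scale and was used only to describe peaks. The MRG-1 peaks were sorted by chromosome and start, and gaps, runs and members were taken by the rule stated above. Chromosome length was the end of the last peak, a lower bound, and position was that of the peak's midpoint. Intervals of shares are 95% exact Clopper-Pearson intervals. They give counting error only and treat peaks as independent. No test was run: there was 1 library, and the rule used the same calls. The regions named were the 8 runs with the most peaks, the 4 with the largest span, the run with the most peaks on each chromosome, and the 5 widest and 3 narrowest members; the least and the most covered run, the densest bins and the stretches from 15 to 25% and from 40 to 60% of the length were chosen after their values were seen. The members and summaries were chosen with earlier results of these data known. The run finder recovered the planted runs in 20 of 20 simulated lists. Planted gaps kept to the same limit of 1000 bp, so recovery was fixed by design and checks the code only. All simulated peaks were under 10000 bp, so the width limit was not exercised. Peaks were not assigned to genes and no sequence was read, since the gene table at hand is on another build. Python 3.11.15, NumPy 2.4.6, pandas 2.3.3, SciPy 1.17.1 and Matplotlib 3.10.9 were used.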

Additional observations from a re-analysis of the deposited data

How the results depend on the processing

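The values depend on how a run is defined, and the unknown depth and caller settings limit all of them. The number of run-interior peaks was 247 with gaps under 500 bp and 679 under 2000 bp. It was 1666, in 696 runs, with a close gap on at least 1 side. It was 22, in 20 runs, when the list was first cut to the 50% of peaks with the highest scores. Gaps then lie between the peaks kept, so 22 is not the number of the 412 with such scores. That setting is called upper 50% by score below. The share in autosome centres was 29.3% (500 bp), 36.4% (upper 50% by score, of 22 peaks), 30.6% (1 side) and 10% in a central 33%. The share of the other peaks under each setting is not given. These values thus cannot show whether the contrast with other peaks changed. The share on X was 0% in the upper 50% by score (0 of 22 peaks) and 1.92% for 1 side. The difference in median width, run-interior minus other peaks, was -707 bp (2000 bp), -769.5 bp (no width limit), -120 bp (peaks under 5000 bp), -94 bp (upper 50% by score) and -669.5 bp (1 side). That in median score was -270.89 (2000 bp), -301.275 (no width limit), -986.315 (upper 50% by score) and -425.17 (1 side), and turned round to 7.34 among peaks under 5000 bp; the cause was not tested. The median covered share was 96.1% (500 bp), 88.3% (2000 bp), 96.5% (upper 50% by score), 95.3% (1 side) and 95.1% with a limit of 600 bp, a setting chosen after seeing the data. With the limit of 600 bp there were 296 run-interior peaks in 187 runs, with 27.5% in centres. No paired analysis was possible because the series has no second library of either kind, and for the same reason none could be left out.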
